A study of Homo sapiens with 4 samples.

Results

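The 10 genes described here encode the enzymes that hydroxylate and crosslink collagen: the lysyl oxidases LOX, LOXL1, LOXL2, LOXL3 and LOXL4, the lysyl hydroxylases PLOD1, PLOD2 and PLOD3, and the prolyl 4-hydroxylase alpha subunits P4HA1 and P4HA2. They were picked by gene symbol, with earlier results of these data known, from the 25559 gene symbols of the count tables. All 10 were listed there, and 9 of them were among the 12967 genes that passed the filter on low counts. The counts came from RNA-seq of HGC-27, a human gastric cancer cell line, with 2 wild-type control libraries and 2 RUNX3 KO libraries. The KO cells carry a Cas9 cut directed at an exon of RUNX3 by a lentiviral guide, followed by puromycin selection and single-cell cloning. How many clones were sequenced and whether the replicates were separate cultures are not given in the sources used here, so the p-values measure the spread between these libraries, which may be technical, and a difference between clones cannot be told apart from an effect of the knockout.

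Collagen chains are modified in the endoplasmic reticulum before they fold. Prolyl 4-hydroxylase, a tetramer of alpha and beta subunits, hydroxylates proline and so stabilizes the triple helix, and lysyl hydroxylases hydroxylate lysine, which prepares it for glycosylation and for the more stable crosslinks. Both need iron, 2-oxoglutarate and ascorbate. After secretion, lysyl oxidases, which are copper enzymes, oxidize lysine and hydroxylysine in collagen and elastin to aldehydes that then form crosslinks. Stiffened, crosslinked collagen is a known feature of invasive solid tumors.

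Gene counts summed to 11731401 and 11733407 in control and 11898276 and 12110876 in RUNX3 KO libraries. RUNX3 itself had 351 and 308 counts in control cells and 225 and 185 in KO cells. The log2 fold change of RUNX3, KO over control and written log2FC from here on, was -0.70 ± 0.0961 (SE, Benjamini-Hochberg adjusted p = 1.43e-09, edgeR quasi-likelihood). The transcript was thus lower but not lost, whereas the paper reports RUNX3 protein as absent from the KO cells by immunoblot. Without RUNX3 KO replicate 2 the edgeR adjusted p of RUNX3 was 0.0649. The cell type markers went partly against an epithelial label. KRT19 was at 0 counts in every library and EPCAM had 1 and 1 counts in control cells and 0 and 0 in KO cells, whereas KRT8 went from 19 and 11 to 72 and 81 counts, CDH1 from 15 and 21 to 30 and 32, and KRT18 from 0 and 0 to 2 and 14. The 5 epithelial markers summed to 2.80 to 2.96 CPM (counts per 1000000 counts of the scaled library) in control and 8.81 to 10.6 CPM in KO libraries. By contrast, the 5 fibroblast markers DCN, LUM, PDGFRA, PDGFRB and COL3A1 summed to 2220 to 2276 CPM in control and 1786 to 1802 CPM in KO libraries, and all 5 were lower in KO cells. The mesenchymal genes VIM and ZEB1 and the smooth muscle actin ACTA2 were also lower, with log2FC values of -0.75, -0.26 and -0.78, while CDH2, DES and MYH11 of the same lists had at most 6 counts in any library and were not tested. Endothelial and leukocyte markers, each list on its own, summed to at most 0.508 CPM in any library, with PECAM1, CDH5 and CD3E at 0 throughout.

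Of the 9 tested enzyme genes, LOXL1 was the only one that changed by at least 2-fold with an unadjusted p of at most 0.05, the criteria of the study, and it was lower in RUNX3 KO cells. Among all tested genes, 4.01% were lower and 2.11% higher by these criteria. The paper, which normalized the counts in another way, reports more genes in both directions at these thresholds. At an adjusted p under 0.05, 3 enzyme genes were lower (LOXL1, LOXL2 and PLOD3) and 3 were higher (PLOD1, LOX and PLOD2), against 24.4% lower and 24.5% higher among all tested genes. Among the enzyme genes, calls of this kind took in changes as small as the 5.31% by which PLOD3 fell. The levels in the groups did not overlap for 3 lower and 4 higher enzyme genes, where 36.4% and 36.3% of all tested genes did the same. The median log2FC of the 9 genes was 0.01, beside -0.002 for all tested genes. The enzymes did not shift together, and their changes in level ran from -59.7% for LOXL1 to 20.5% for PLOD1.

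**Figure D1:**
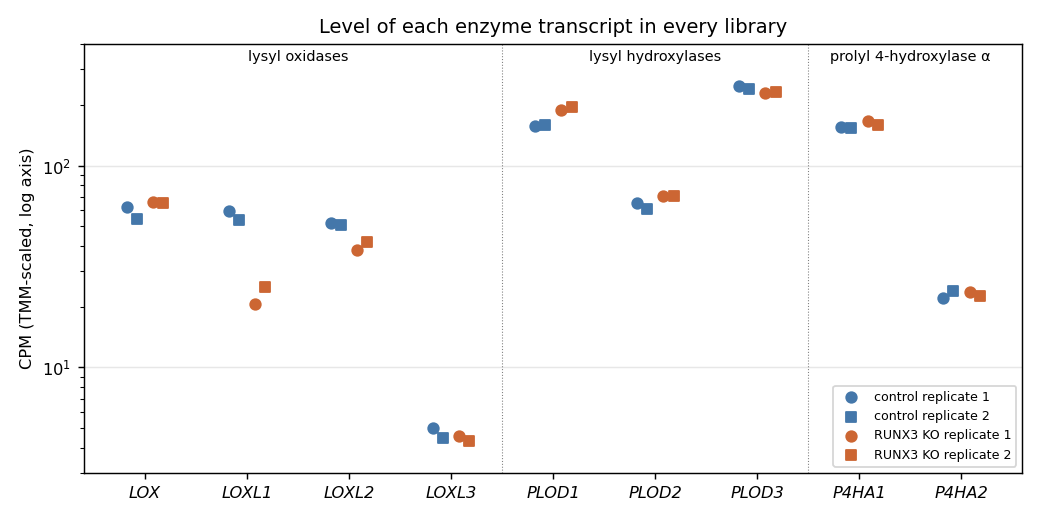
Level of the 9 tested enzyme transcripts in each library, in CPM on a log axis, with control libraries in blue, RUNX3 KO libraries in orange, replicate 1 as circles and replicate 2 as squares. LOXL1 drops from between 53.9 and 59.5 CPM to between 20.5 and 25.1 CPM, while the points of the other genes lie much closer together.

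LOXL1 is the lysyl oxidase best known for elastic fibers. Its counts were 703 and 636 in control and 242 and 302 in RUNX3 KO libraries. Both KO libraries lay far below both controls. Its level fell from 56.7 ± 3.997 CPM (SD, n = 2) to 22.8 ± 3.26 CPM (SD, n = 2), with a log2FC of -1.31 ± 0.0767 (SE, 95% interval -1.46 to -1.16, Benjamini-Hochberg adjusted p = 1.22e-27, edgeR quasi-likelihood). This was 2.48-fold, and 487 of the 12967 tested genes changed by more in either direction. Leaving out 1 library at a time gave log2FC values from -1.47 to -1.17, and the adjusted p by the same edgeR test reached 0.0183 at most. The fibroblast markers named above moved in the same direction as LOXL1, and their part in this fall was not tested. In bulk RNA, fewer cells that express a gene and less of its RNA per cell cannot be told apart.

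LOXL1 lies on chromosome 15 from 74218330 to 74244478 (hg19, as all gene positions here, plus strand), in a stretch where most genes were higher in KO cells. Of its 40 nearest tested genes only 6 had a negative log2FC, and their median was 0.24. Relative to that median, LOXL1 stood at -1.55 on the log2 scale. Among these 40, 2 genes fell at least as much, and both lie close by. C15orf59, the next tested gene on one side, had 91 and 95 counts in control and 32 and 38 in KO libraries, with a log2FC of -1.42 ± 0.193 (SE, Benjamini-Hochberg adjusted p = 9.25e-10, edgeR quasi-likelihood). STRA6, the third tested gene on the other side, encodes a retinol uptake receptor and had 39 and 35 counts in control and 3 and 5 in KO libraries, at or near the floor of 3 counts. STRA6 passed the filter on low counts only through the control group, and its fitted log2FC, -3.18, is a description. The tested genes between LOXL1 and STRA6, STOML1 and PML, had log2FC values of 0.23 and 0.09 and were not called. C15orf59 and STRA6 were chosen after their values were seen. LOXL1 shares 335 exonic bases with the antisense RNA LOXL1-AS1 of the GENCODE annotation, and because it is not given whether counting used strand, reads of the pair cannot be told apart there.

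**Figure D2:**
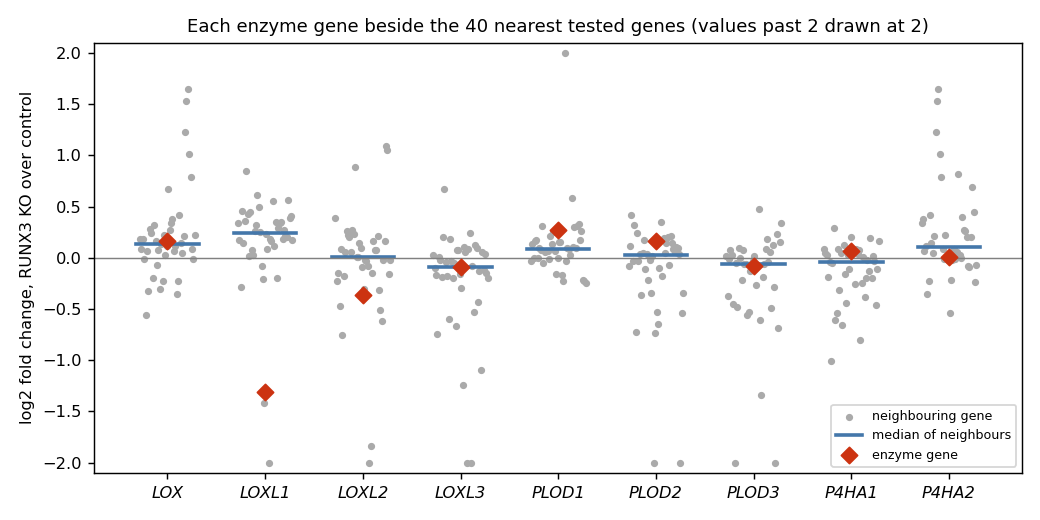
Log2FC (RUNX3 KO over control) of each tested enzyme gene (red diamond) beside its 40 nearest tested genes on the chromosome (grey points) and their median (blue line). LOXL1 lies well under a neighborhood whose median is 0.24, whereas LOX, LOXL3 and PLOD3 lie near the medians of theirs.

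LOXL2 (chromosome 8, 23154410 to 23282841, minus strand) is linked to collagen IV crosslinking and to invasion in several carcinomas. It had 615 and 601 counts in control and 452 and 501 in RUNX3 KO libraries. The groups did not overlap, though the KO libraries differed from each other more than the controls did. It fell from 51.5 ± 0.824 to 39.98 ± 2.39 CPM (SD, n = 2 each), with a log2FC of -0.36 ± 0.0662 (SE, 95% interval -0.50 to -0.23, Benjamini-Hochberg adjusted p = 2.01e-06, edgeR quasi-likelihood). Its level fell by 22.3%, while the median of the 40 tested genes nearest to it was 0.01. LOXL2 shares 178 exonic bases with the antisense LOXL2-AS1 and 120 with ENTPD4, the adjacent tested gene on the same strand, whose log2FC was -0.31, and the part of shared reads in the fall of LOXL2 was not tested. COL4A1, a chain of the collagen IV network, had 1 count at most in any library.

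LOX (chromosome 5, 121398890 to 121414108, minus strand), the founding member of the family, went slightly the other way. It had 735 and 643 counts in control and 778 and 783 in KO libraries, so the controls differed from each other by more than the KO libraries did. Its log2FC was 0.17 ± 0.0581 (SE, 95% interval 0.05 to 0.28, Benjamini-Hochberg adjusted p = 0.0127, edgeR quasi-likelihood), a rise of 12.2%. This call was lost with DESeq2 (adjusted p = 0.204), without a filter (edgeR, adjusted p = 0.144), and without control replicate 2, where the log2FC was 0.07 (edgeR, adjusted p = 0.430). It was also lost without RUNX3 KO replicate 1 or 2 (edgeR, adjusted p = 0.314 and 0.293). The 40 nearest tested genes of LOX had a median of 0.14, so that it exceeded its neighborhood by 0.03.

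LOXL3 (chromosome 2, 74759385 to 74782817, minus strand) was scarce, with 59 and 53 counts in control and 54 and 52 in KO libraries. The groups overlapped, and the 95% interval of its log2FC ran from -0.48 to 0.30, which in level is -28.5% to 23.1%. LOXL3 also shares 936 exonic bases with HTRA2 on the other strand. LOXL4 (chromosome 10, 100007447 to 100027951, minus strand) was near silent, at 0 and 0 counts in control and 1 and 0 in KO libraries, under the 3 counts per library taken as the floor, and was not tested.

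The lysyl oxidase family as a whole thus changed in make-up. Levels of different genes were set against each other per length, as CPM per kilobase of annotated exons, and summed over the family these went from 35.7 ± 2.30 in control to 25.7 ± 1.14 CPM per kilobase in KO cells (SD, n = 2 in each group). LOXL1 made up 43.9% and 43.5% of that sum in the control libraries but 22.7% and 26.1% in the KO libraries. Over the same libraries the share of LOX went from 29.8% and 28.6% to 47.4% and 43.98%, so that LOX took the place of LOXL1 as the leading member. LOXL2 held 23.3% and 25.0% in control and 25.7% and 26.3% in KO libraries. Within a library, the ratio of LOX to LOXL1 counts, which is free of any scaling, was 1.05 and 1.01 in control and 3.21 and 2.59 in KO cells. The level of LOX itself rose by 12.2%.

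**Figure D3:**
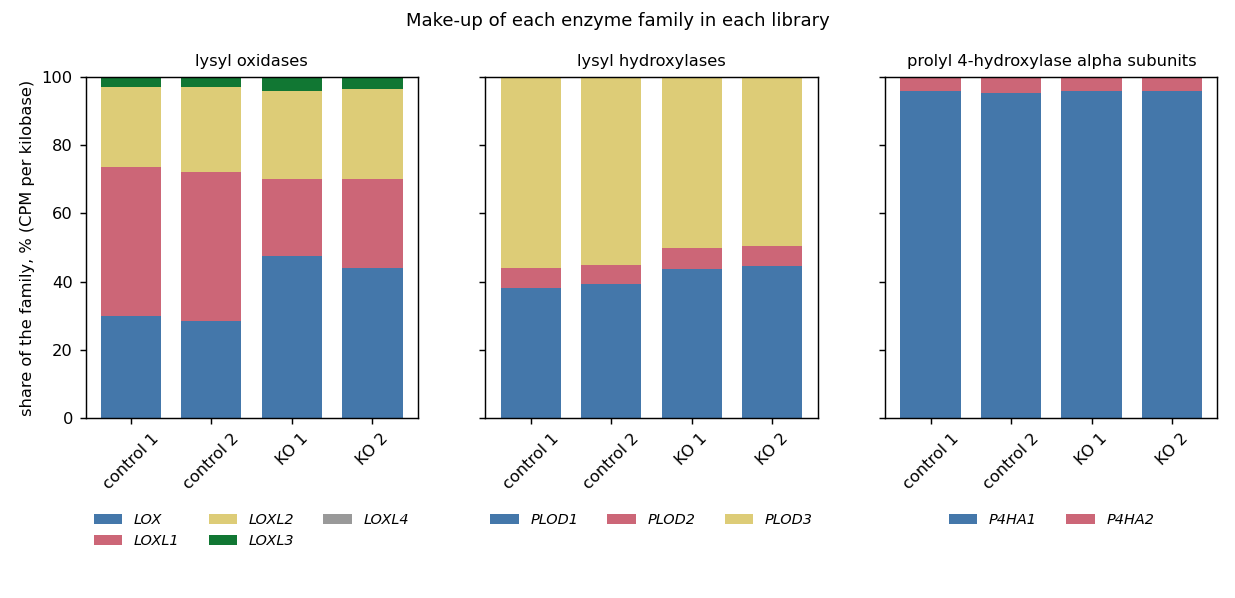
Share of each gene in the summed level of its family, in percent of CPM per kilobase, for every library. LOXL1 shrinks from 43.9% and 43.5% to 22.7% and 26.1% of the lysyl oxidases, PLOD1 widens from 38.1% and 39.3% to 43.8% and 44.5% of the lysyl hydroxylases, and the split of the prolyl 4-hydroxylase alpha subunits differs little between groups.

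PLOD1 (chromosome 1, 11994262 to 12035595, plus strand) encodes the lysyl hydroxylase that acts on lysines of the triple helix. Its 1856 and 1883 counts in control libraries rose to 2216 and 2332 in KO libraries, with no overlap. In level this was 158 ± 1.66 to 191 ± 4.401 CPM (SD, n = 2 each), with a log2FC of 0.27 ± 0.0364 (SE, 95% interval 0.20 to 0.34, Benjamini-Hochberg adjusted p = 7.41e-10, edgeR quasi-likelihood). The rise of 20.5% was the largest among the enzyme genes and kept an adjusted p of at most 0.0307 in each of the other edgeR fits, DESeq2 and limma-voom. Its nearest genes had a median of 0.09, and 6 of the 40 rose at least as much.

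PLOD2 (chromosome 3, 145752926 to 145881512, minus strand), the enzyme for telopeptide lysines and known to rise with hypoxia and fibrosis, had 771 and 721 counts in control and 837 and 849 in KO libraries. Its log2FC of 0.16 ± 0.0547 (SE, 95% interval 0.05 to 0.27, Benjamini-Hochberg adjusted p = 0.00950, edgeR quasi-likelihood) corresponds to 11.97%. Like LOX, it lost the call with DESeq2 (adjusted p = 0.173), without a filter (edgeR, adjusted p = 0.0552), and without control replicate 2, RUNX3 KO replicate 1 or RUNX3 KO replicate 2 (edgeR, adjusted p = 0.166, 0.154 and 0.159).

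PLOD3 (chromosome 7, 100849258 to 100861701, minus strand), which hydroxylates lysine and can also glycosylate hydroxylysine, was the only lysyl hydroxylase below zero. It had 2915 and 2814 counts in control and 2707 and 2768 in KO libraries. Its level fell by 5.31%, with a log2FC of -0.08 ± 0.0326 (SE, Benjamini-Hochberg adjusted p = 0.0380, edgeR quasi-likelihood). The call did not survive DESeq2 (adjusted p = 0.261), the lack of a filter (edgeR, adjusted p = 0.102), or the removal of control replicate 1, RUNX3 KO replicate 1 or RUNX3 KO replicate 2 (edgeR, adjusted p = 0.279, 0.235 and 0.209). The 40 genes nearest to PLOD3 had a median of -0.06. Together the lysyl hydroxylases summed to 76.9 ± 0.947 CPM per kilobase in control and 81.3 ± 0.924 CPM per kilobase in KO cells (SD, n = 2 in each group). PLOD3 held 56.1% and 55.1% of that in control and 50.2% and 49.6% in KO libraries.

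P4HA1 (chromosome 10, 74766975 to 74856732, minus strand) and P4HA2 (chromosome 5, 131525840 to 131631008, minus strand) are the catalytic alpha subunits that set proline hydroxylation. P4HA1 had 1833 and 1820 counts in control and 1955 and 1902 in KO libraries, which after scaling were 155 and 154 CPM against 166 and 158 CPM. The groups were close but did not overlap. Its log2FC of 0.07 was not called (95% interval -0.01 to 0.14, adjusted p = 0.149 Benjamini-Hochberg, edgeR quasi-likelihood), and the interval leaves room for a rise of up to 10.2%. P4HA2 had 261 and 282 counts against 279 and 272, with overlapping groups, 548 exonic bases shared with the antisense P4HA2-AS1, and a log2FC of 0.01 (95% interval -0.17 to 0.19), whose sign turned with library size or upper-quartile scaling and without control replicate 1 or RUNX3 KO replicate 1. P4HA1 made up 95.8% and 95.5% of the summed level of the 2 subunits in control and 95.8% and 95.8% in KO libraries. Their partner P4HB, the beta subunit that also serves as protein disulfide isomerase, fell by 0.24 on the log2 scale (SE 0.0230), and the ratio of P4HA1 to P4HB counts went from 0.163 and 0.162 in control to 0.208 and 0.195 in KO libraries.

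**Figure D4:**
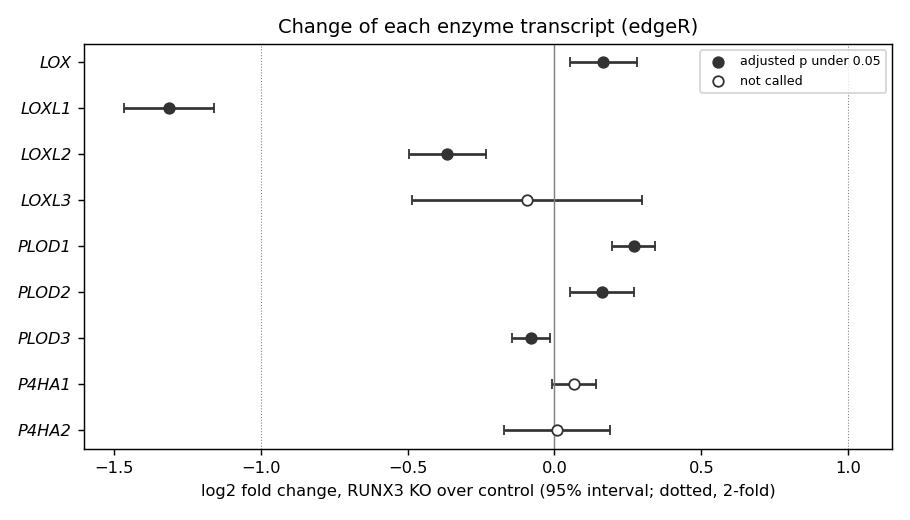
Log2FC of each tested enzyme gene, RUNX3 KO over control, with its 95% interval from edgeR's quasi-likelihood fit, filled where the adjusted p was under 0.05. LOXL1, at -1.31, lies past the dotted 2-fold line, and the intervals of LOXL3, P4HA1 and P4HA2 cover 0.

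Per length, P4HA1, PLOD3 and PLOD1 stood above every lysyl oxidase. In control cells P4HA1 had 50.03 ± 0.237, PLOD3 42.8 ± 1.05, PLOD1 29.8 ± 0.313 and LOXL1 15.6 ± 1.10 CPM per kilobase, followed by LOX at 10.4 ± 0.982 and LOXL2 at 8.61 ± 0.138 (SD, n = 2). PLOD2 at 4.35 ± 0.205, P4HA2 at 2.27 and LOXL3 at 1.05 CPM per kilobase came last, and neighbors in this order differed by more than their replicate SDs. With the longest annotated transcript as the length, PLOD3 came first at 86.0 CPM per kilobase and P4HA1 followed at 54.4, close to PLOD1 at 53.2, while LOXL2 at 13.8 then stood above LOX at 11.5. PLOD2 went from 4.35 to 10.8 CPM per kilobase in control cells, as its annotated exons span 14518 bases and its longest transcript 5867. In KO cells LOXL1, at 6.27 ± 0.898 CPM per kilobase of exons (SD, n = 2), did not differ from LOXL2 at 6.68 ± 0.399 beyond this spread and stood below LOX at 11.7 ± 0.0994. With the longest transcript LOXL1, at 8.19 CPM per kilobase in KO cells, was lower than LOXL2 at 10.7.

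Promoter windows from RefSeq on GRCh38.p14, 250 bases before to 50 bases after a transcript start, were matched by symbol for 9 of the 10 genes, with 12 windows in all. LOXL2 had no matched window and was not searched. They were searched on both strands for TGTGGT and TGCGGT, forms of the sequence that RUNX proteins bind, and for ACGTG, the core bound by hypoxia-inducible factors, and no match overlapped another within a window. TGTGGT was found in 1 of the 12 windows, that of P4HA2, and TGCGGT in 2, those of PLOD2 and P4HA2, while 13.1% and 7.29% of all 35116 windows hold them. ACGTG was found in 5 of the 12 windows, from LOX, PLOD2 and P4HA1, against 21.4% of all windows. Of these 5, 3 belong to LOX, and 2 of those overlap and hold the same match, so the count is not one of separate sites. The windows of LOXL1, the gene with the largest fall, of PLOD1, the one with the largest rise, and of the most upstream LOX start, which holds ACGTG or its reverse complement 4 times, are shown 5′ to 3′ with matches in capitals. They lie at chr15:73926212-73926511 on the plus strand, chr1:11934467-11934766 on the plus strand and chr5:122078210-122078509 on the minus strand.
LOXL1: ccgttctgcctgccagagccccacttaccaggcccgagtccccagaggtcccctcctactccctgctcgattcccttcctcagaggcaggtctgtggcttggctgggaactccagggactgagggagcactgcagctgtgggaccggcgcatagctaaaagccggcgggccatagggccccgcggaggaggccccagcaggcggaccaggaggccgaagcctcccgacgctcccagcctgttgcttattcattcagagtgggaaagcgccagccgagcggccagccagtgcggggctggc
PLOD1: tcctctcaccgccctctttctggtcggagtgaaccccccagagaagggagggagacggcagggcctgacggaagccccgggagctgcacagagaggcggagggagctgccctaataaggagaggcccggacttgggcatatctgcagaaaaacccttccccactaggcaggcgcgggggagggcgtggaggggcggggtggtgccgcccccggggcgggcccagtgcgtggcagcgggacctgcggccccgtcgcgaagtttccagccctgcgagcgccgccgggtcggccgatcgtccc
LOX: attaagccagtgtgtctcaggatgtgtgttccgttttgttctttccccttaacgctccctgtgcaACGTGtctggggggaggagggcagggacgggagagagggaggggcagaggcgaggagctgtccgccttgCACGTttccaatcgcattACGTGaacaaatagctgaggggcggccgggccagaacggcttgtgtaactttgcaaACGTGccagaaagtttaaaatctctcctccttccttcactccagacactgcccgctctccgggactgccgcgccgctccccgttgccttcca
The LOXL1 and PLOD1 windows hold none of the 3 motifs.

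Other genes that process collagen were compared from a list of 24, of which 22 were tested. At an adjusted p under 0.05, 12 were lower and 4 higher in KO cells, which is 54.5% and 18.2% of the tested genes against 24.4% and 24.5% of all genes, and the median log2FC was -0.19. Without RUNX3 KO replicate 1 or RUNX3 KO replicate 2, 7 were lower and 3 higher in either case, while calls over all genes went to 1531 lower and 1483 higher without the first and 1378 and 1285 without the second. The lower genes included chaperones and modifiers of the endoplasmic reticulum. SERPINH1, the collagen chaperone HSP47, fell by 0.20 on the log2 scale (SE 0.0236), the peptidyl-prolyl isomerase FKBP10 by 0.25 (SE 0.0297) and COLGALT1, which adds galactose to hydroxylysine, by 0.28 (SE 0.0281). PPIB, cyclophilin B, rose by 0.18 (SE 0.0254), and CRTAP, its partner in prolyl 3-hydroxylation, had a log2FC of 0.04 and was not called. SERPINH1, FKBP10, COLGALT1 and PPIB were named after their values were seen.

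The proteases that trim procollagen showed the largest changes of this list. TLL1, a tolloid protease of the BMP1 family that removes the carboxyl propeptide, rose from 126 and 131 counts in control to 270 and 303 in KO libraries, a log2FC of 1.14 ± 0.108 (SE). TLL2, of the same family, had 32 and 22 counts against 13 and 10, with a log2FC of -1.24 ± 0.339 (SE, Benjamini-Hochberg adjusted p = 0.00144, edgeR quasi-likelihood), and its adjusted p reached 0.158 in the least favorable of the other edgeR, DESeq2 and limma-voom fits. ADAMTS14, which removes the amino propeptide, fell from 122 and 126 counts to 57 and 67, a log2FC of -1.01 ± 0.157 (SE). BMP1, which lost its call in at least 1 of the other fits and whose product also activates LOX by cleaving its propeptide, had 554 and 618 counts against 534 and 511 and a log2FC of -0.18 ± 0.0662 (SE).

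Substrates and scaffolds of the enzymes held the largest changes of the lists compared here. Of 18 listed genes 13 were tested, and 9 were lower and 4 higher at an adjusted p under 0.05. These are 69.2% and 30.8%, against 24.4% and 24.5% of all tested genes. With at least 10 counts required in every library, 8 were lower and 3 higher. COL1A2, which encodes the alpha 2 chain of type I collagen, had 1973 and 2030 counts in control and 1 and 5 in KO libraries, and passed the filter on low counts only through the control group. FN1, fibronectin, fell from 115 and 95 to 15 and 11 counts, a log2FC of -3.01 ± 0.240 (SE). COL4A2 had 8 and 4 counts in control and 32 and 41 in KO libraries, so it passed the filter on low counts only through the KO group, and its log2FC of 2.57 (SE 0.369) is a description. FBLN5, fibulin-5, a scaffold protein that binds LOXL1 in elastic fibers and was named after its values were seen, fell from 468 and 497 to 228 and 258 counts, a log2FC of -1.003 ± 0.0821 (SE). ELN, elastin, had 1 count at most in any library. COL3A1 is both a substrate and one of the fibroblast markers, whose part in these changes was not tested.

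The fibrillar collagen chains summed to 552 ± 13.6 CPM per kilobase in control and 454 ± 2.94 CPM per kilobase in KO cells (SD, n = 2 in each group). Of the 9 chains tested, 6 fell and 3 rose at an adjusted p under 0.05 by edgeR, against 24.4% lower and 24.5% higher among all tested genes. The 6 included COL1A2, which passed the filter on low counts only through the control group. COL1A1 fell by 0.87 on the log2 scale (SE 0.0237) and COL5A1 by 1.35 (SE 0.0393), COL3A1 by 0.30 (SE 0.0209), COL27A1 by 0.30 (SE 0.0575) and COL11A2 by 0.61 (SE 0.210), beside COL1A2, whereas COL5A2 rose by 0.64 (SE 0.0263), COL11A1 by 0.53 (SE 0.0285) and COL5A3 by 1.56 (SE 0.144). These chains were named after their values were seen, and COL11A2 did not keep its call in every other fit. Ratios of counts were computed for PLOD1 and P4HA1 alone, and only to COL1A1, which itself fell. They do not describe the other chains, of which COL5A2, COL11A1 and COL5A3 rose. For PLOD1 the ratio was 0.123 and 0.132 in control and 0.277 and 0.282 in KO libraries, and for P4HA1 0.121 and 0.127 against 0.244 and 0.230.

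**Figure D5:**
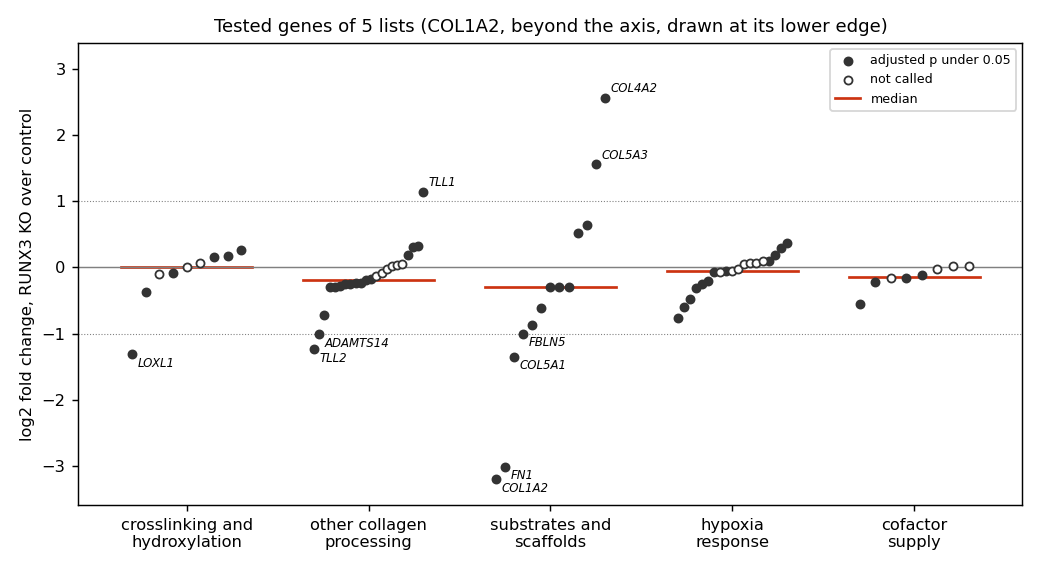
Log2FC (RUNX3 KO over control) of every tested gene in 5 lists, filled where the adjusted p was under 0.05, with the list median in red. The crosslinking and hydroxylation enzymes center on a median of 0.01 with LOXL1 apart, whereas substrates and scaffolds reach from COL1A2, drawn at the lower edge, to COL4A2, which has few counts, at 2.57.

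Several of the enzymes, LOX, LOXL2, PLOD1, PLOD2, P4HA1 and P4HA2 among them, are textbook targets of hypoxia-inducible factors, and 22 hypoxia-response genes were therefore listed. Of 19 tested, 8 were lower, 4 higher and 7 not called at an adjusted p under 0.05, or 42.1% lower and 21.1% higher against 24.4% and 24.5% of all tested genes, with a median log2FC of -0.05 and no gene changed by at least 2-fold. PFKFB4 had 65 and 55 counts in control and 27 and 44 in KO libraries, a log2FC of -0.77 ± 0.219 (SE). EGLN3, itself a 2-oxoglutarate-dependent prolyl hydroxylase that acts on HIF, fell by 0.60 (SE 0.0825) and PDK1 by 0.48 (SE 0.159). VEGFA and SLC2A1, 2 further genes of the list picked after their values were seen, went in opposite directions, at -0.21 and 0.19. HIF1A, at 0.06, was not called. Without RUNX3 KO replicate 1 or RUNX3 KO replicate 2 fewer genes of the list were called, as was true of all tested genes. PFKFB4 and PDK1 each lost the call in at least 1 of the other fits (edgeR, DESeq2 or limma-voom).

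Of 9 genes that supply copper, ascorbate or iron, 8 were tested, and 4 were lower and 4 not called at an adjusted p under 0.05 by edgeR's quasi-likelihood test, where 24.4% of all tested genes were lower. ATP7A, the pump that loads copper into secreted cuproenzymes such as the lysyl oxidases, had 277 and 244 counts in control and 182 and 175 in KO libraries. Its log2FC was -0.56 ± 0.102 (SE, Benjamini-Hochberg adjusted p = 2.42e-06, edgeR quasi-likelihood), but the adjusted p rose to 0.0736 in the least favorable of the other fits. ATOX1, which hands copper to ATP7A, was at -0.22 (SE 0.0680), and the ascorbate transporter SLC23A2 at -0.15 (SE 0.0579). SLC31A1, the copper importer, was at 0.02 and not called. With DESeq2 1 gene was called. Without RUNX3 KO replicate 1 or RUNX3 KO replicate 2 the calls were lost, in fits where calls over all tested genes also became fewer.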

How the data were processed

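RNA-seq counts of 2 control and 2 RUNX3 KO libraries of HGC-27 cells were analysed. The authors deposited raw counts of reads per gene symbol on hg19, not normalized. The submitters' processing notes name HISAT2 2.1.0 and HTSeq, whereas the paper names STAR and featureCounts with GENCODE. The counter's strand setting is not given in the sources used here. Culture medium and RNA extraction also differ between the paper and the labels. Of 25564 rows per table, 5 rows of reads without a gene, 25.9% to 28.1% of counts, were left out.

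Genes were kept by filterByExpr of edgeR 4.0.16 in R 4.3.3 (minimum count 10, minimum total 15), scaled by TMM and compared by the quasi-likelihood test without a block, two-sided, with Benjamini-Hochberg adjustment over all 12967 genes. CPM were computed on the TMM-scaled library sizes. Standard errors were the log2 fold change over the square root of F. Intervals are at 95%. An exact two-sided permutation test of 2 against 2 libraries cannot go below p = 0.333. Replicates differed by more than counting noise (chi-square per degree of freedom 1.22 in control and 1.18 in KO, p = 9.35e-66 and 1.48e-43 over genes), so no pair was treated as 1 repeated library, which does not show separate cultures. The biological coefficient of variation over genes was 1.45%. Same-numbered libraries did not deviate together (correlation -0.0131 over 9490 genes), and their numbers were not taken as pairs. Gene positions and lengths came from GENCODE v44 lifted to GRCh37, the same build as hg19, in which 94.2% of tested genes had a position, and neighbors were the 20 nearest tested genes on each side. The fits were checked on simulated counts.

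The enzyme genes and the lists were chosen with earlier results of these data known. Every enzyme gene and RUNX3 were named, and from each other list the 3 called genes with the largest change and no overlap between groups. Other genes of these lists, such as P4HB, BMP1, CRTAP, ELN, COL4A1, HIF1A and SLC31A1, were named for their role after their values were seen. The alternatives were other scalings, filters and tests, a replicate block, another gene length, subtraction of the neighborhood median and each library left out. DESeq2 1.42.0 and limma 3.58.1 were used there.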

Additional observations from a re-analysis of the deposited data

How the results depend on the processing

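The fall of LOXL1 and LOXL2 and the rise of PLOD1 held their call in each fit listed here, and LOX, PLOD2 and PLOD3 did not. With DESeq2, 1863 genes were lower and 1829 higher at an adjusted p under 0.05 (edgeR 3158 and 3183), and 1 enzyme gene was higher instead of 3, 4 hypoxia-response genes were lower and 2 higher instead of 8 and 4, and 1 cofactor supply gene was lower instead of 4. Without a filter in edgeR, 1 enzyme gene was higher, 4 hypoxia-response genes were lower and 1 cofactor supply gene was lower. A minimum of 10 counts in every library left 298 lower and 160 higher genes at 2-fold (520 and 274 with the usual filter) and 1 higher substrate gene instead of 2. The cause of these differences was not tested. Library-size and upper-quartile scaling turned the log2 fold change of P4HA2 from 0.00787 to -0.0121 and -0.0128.

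With a library left out in turn, genes at an adjusted p under 0.05 by edgeR ranged from 1378 to 2806 lower and from 1285 to 2745 higher, the fewest without RUNX3 KO replicate 2 and nearly as few without RUNX3 KO replicate 1 (1531 and 1483). Higher enzyme genes ranged from 1 to 3, lower partner genes from 7 to 12, partner genes lower at 2-fold from 1 to 1, hypoxia-response genes from 1 to 8 lower, 1 to 5 higher and 0 to 1 lower at 2-fold, and lower cofactor supply genes from 0 to 2, with 0 both without RUNX3 KO replicate 1 and without RUNX3 KO replicate 2. The enzymes' median log2 fold change ranged from -0.0214 to 0.0583, that of P4HA2 from -0.0468 to 0.0629 and that of RUNX3 from -0.86 to -0.55. The share of P4HA1 in its family differed between groups by -0.0132 to 0.338 percentage points. With the longest transcript as gene length, the share of LOX rose by 14.7 percentage points instead of 16.5 and that of LOXL2 by 2.99 instead of 1.87. The LOXL2 value was 1.04 without control replicate 1 and 2.70 without control replicate 2. With the replicate block, 3143 genes were lower and 3143 higher, and no call of an enzyme gene changed. LOXL3 and LOXL4 had the fewest counts of the enzyme genes.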
